A study of Mus musculus with 16 samples.

Results

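The 10 genes described here are *Trat1*, *Cd3d*, *Cd3e*, *Cd3g*, *Cd247*, *Lck*, *Zap70*, *Lat*, *Tcf7* and *Gzmb*, out of 54347 genes in the expression table. They were chosen by symbol. *Trat1* and *Gzmb* were selected on their measured difference between genotypes in these libraries, so their values are given as a description without a test. The other 8 were listed for their role in T-cell receptor (TCR) signalling and T-cell identity, with earlier results of these data known. RNA was sequenced from 2 bone marrow progenitor populations of UREΔ mice and wild-type (WT) littermates on a C57BL/6 background, all 8 to 12 weeks old, with 4 mice in each of the 4 groups and 16 libraries in all. LSKs (Lin-Sca-1+c-Kit+) hold the stem cells and multipotent progenitors, and GMPs (Lin-Sca-1-c-Kit+Cd16/32+) are granulocyte and monocyte progenitors. UREΔ mice lack the upstream regulatory element of *Spi1*, the gene of the transcription factor PU.1, a deletion carried in the germ line and so not limited to these cells. Cells that stained for Cd3, Cd4, Cd8 and markers of other mature lineages were removed in the sort, so mature T cells were not the population studied.

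In a T cell, the receptor chains that recognise antigen have no signalling tails of their own. They sit in the membrane with the CD3 gamma, delta and epsilon chains and the zeta chain, whose tails are phosphorylated by the kinase LCK. The kinase ZAP70 then docks on them and phosphorylates the adaptor LAT, which gathers the enzymes of the next steps. TRAT1 (also called TRIM) is a transmembrane adaptor that associates with the receptor complex, TCF1 (encoded by *Tcf7*) is a transcription factor of early T-cell development, and granzyme B is a serine protease of the granules with which cytotoxic lymphocytes kill target cells. Part of this equipment is used outside T cells, since LAT also acts in mast cells and platelets and granzyme B also occurs in mast cells.

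*Trat1* and *Gzmb* differed most between the genotypes, and the 250 bases before their start sites are shown because the study asked how PU.1 loss changes the binding of its partner RUNX1. Both genes lie on the minus strand, and the sequences, from RefSeq on GRCm38.p6, are written 5′ to 3′ in the direction of transcription. Capitals mark the letters of a RUNX core motif, TGTGGT on either strand (ACCACA where the motif lies on the other strand). *Trat1* occupies chr16:48730774-48772021, with the stretch printed at chr16:48772063-48772312, and *Gzmb* occupies chr14:56258838-56262260, with the stretch printed at chr14:56262335-56262584.
Trat1: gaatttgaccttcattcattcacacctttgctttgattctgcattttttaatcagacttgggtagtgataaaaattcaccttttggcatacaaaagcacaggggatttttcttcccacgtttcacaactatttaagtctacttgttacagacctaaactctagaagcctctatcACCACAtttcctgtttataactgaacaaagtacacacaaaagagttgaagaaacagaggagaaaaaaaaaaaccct
Gzmb: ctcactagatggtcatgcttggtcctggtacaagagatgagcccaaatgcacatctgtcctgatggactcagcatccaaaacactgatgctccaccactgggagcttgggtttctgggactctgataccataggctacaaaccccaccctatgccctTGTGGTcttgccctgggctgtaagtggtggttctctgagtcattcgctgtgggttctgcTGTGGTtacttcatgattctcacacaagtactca
The *Trat1* stretch holds 1 such motif, beginning 76 bases before the start site, and the *Gzmb* stretch holds 2, beginning 93 and 34 bases before it. Neither stretch holds GAGGAA, a form of the ETS motif bound by PU.1, on either strand, and shorter ETS motifs were not searched. Of the 10 genes, 4 hold TGTGGT and 6 hold GAGGAA in at least 1 of their promoters. Over all genes with a promoter in the RefSeq table, the shares are 15.9% and 25.9% of 27025. Motif letters are a description of the sequence and were not compared with binding data here.

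The libraries held 20028302 to 29128858 estimated counts, and no replicates were near-identical (chi-square per degree of freedom at least 29.6). *Spi1* was checked first. It lay at 1.13 to 4.44 CPM (counts scaled to library size) in UREΔ LSKs against 69.5 to 165 CPM in WT LSKs, and at 15.6 to 28.6 CPM in UREΔ GMPs against 84.8 to 181 CPM in WT GMPs, without overlap in either population. The labels matched their markers: 10 LSK markers summed to 2940 to 5890 CPM in LSKs and 1030 to 2710 CPM in GMPs, and 8 GMP markers to 697 to 1620 CPM in LSKs and 55800 to 161000 CPM in GMPs. Transcripts from the Y chromosome and *Xist* marked 3 of 4 WT mice as male and 3 of 4 UREΔ mice as female, alike in LSKs and GMPs. Genotype and sex can therefore be told apart only in part. In replicates 1 and 4 the WT and the UREΔ mouse had the same sex. Values within these replicates are given beside the genotype differences of the listed genes that had enough counts. They are not given beside the interaction or for the marker and pathway lists. For those lists genotype and sex were not told apart. In such bulk libraries, fewer cells of a type and less RNA per cell cannot be told apart.

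*Trat1* was close to 0 in WT progenitors and far higher in UREΔ cells of both populations, most of all in GMPs. In the 4 WT LSK libraries it was measured at 0.928, 2.11, 1.44 and 0.805 CPM, and in the 4 UREΔ LSK libraries at 17.3, 25.2, 41.5 and 22.6 CPM. In GMPs the WT libraries gave 1.21, 0.125, 0.0977 and 1.5 CPM, and the UREΔ libraries 166, 77.8, 206 and 146 CPM. The lowest UREΔ library lay above the highest WT library in both populations. Group means were 1.32 ± 0.595 (SD, n = 4) against 26.7 ± 10.4 CPM in LSKs, a ratio of 20.2, and 0.734 ± 0.73 against 149 ± 53.8 CPM in GMPs, a ratio of 203. The log2 fold change was 4.30 (SE 0.426) in LSKs, with 4.49 in replicates 1 and 4 alone, and 7.68 (SE 0.848) in GMPs. In WT GMPs, libraries 2 and 3 held 3 and 2 counts of *Trat1*, against 28 and 29 in libraries 1 and 4, and the log2 fold change in GMPs was 6.83 in replicates 1 and 4 alone against 10.2 in replicates 2 and 3 alone.

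*Gzmb* followed a similar contrast between genotypes, with a much wider spread among the UREΔ GMP mice. WT LSKs gave 0.224, 0.101, 0.546 and 1.37 CPM, and UREΔ LSKs 25.4, 28.1, 42.6 and 33.5 CPM. WT GMPs gave 2.29, 5.56, 1.76 and 2.18 CPM, and UREΔ GMPs 42.3, 7.83, 102 and 29.5 CPM. The genotypes did not overlap in either population, although UREΔ GMP library 2 came close to WT GMP library 2. Means were 0.56 ± 0.571 against 32.4 ± 7.61 CPM in LSKs (ratio 57.9, log2 fold change 5.85, SE 0.694) and 2.95 ± 1.76 against 45.5 ± 40.5 CPM in GMPs (ratio 15.4, log2 fold change 3.96, SE 0.761). Within the same-sex replicates 1 and 4 the log2 fold changes of *Gzmb* were 5.22 and 3.99. Leaving out 1 library at a time gave 5.50 to 6.76 in LSKs, the highest without WT LSK library 4, and 3.12 to 4.45 in GMPs, the lowest without UREΔ GMP library 3.

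**Figure D1:**
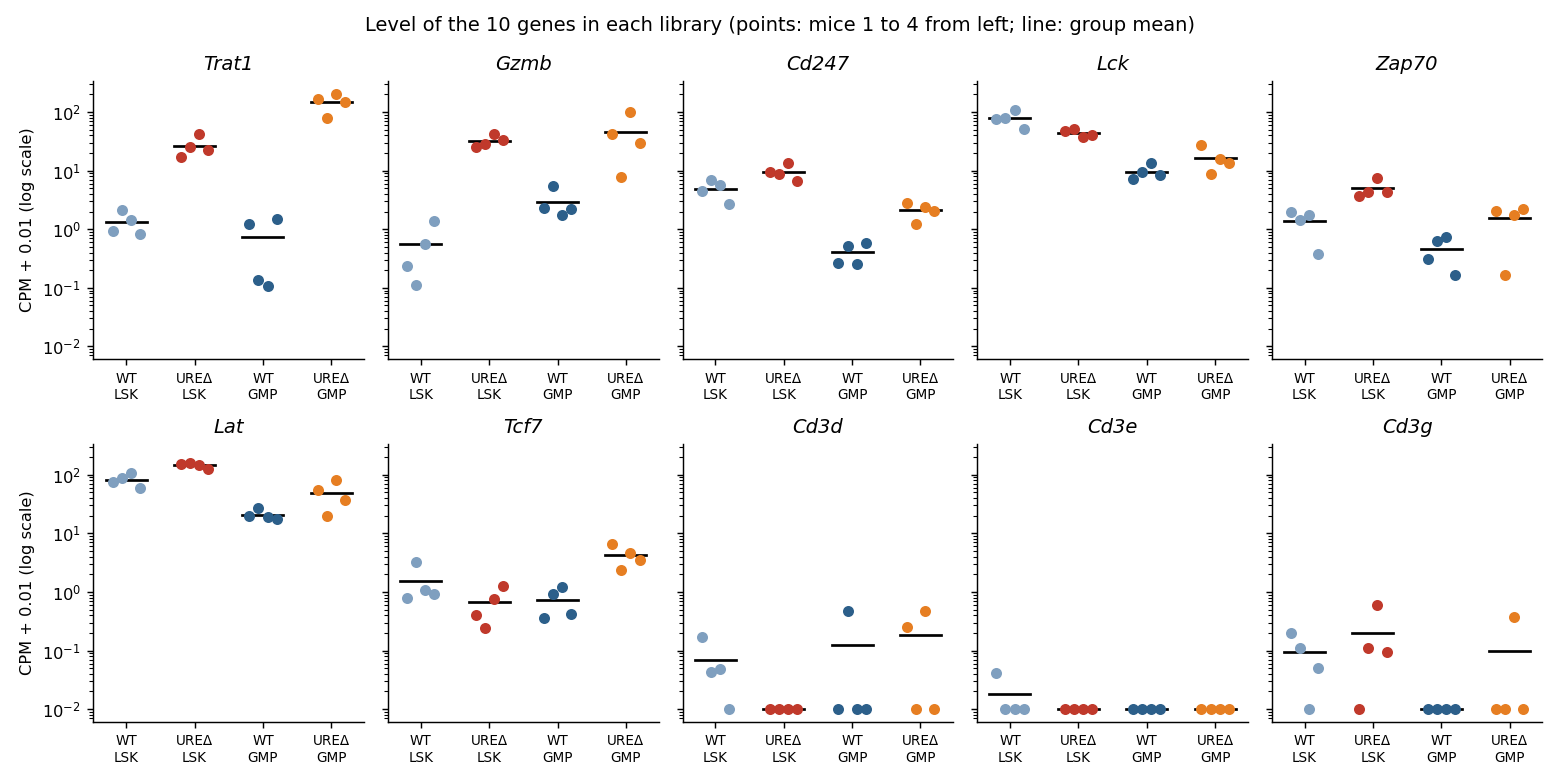
Level of each of the 10 genes in CPM plus 0.01 on a log axis, with a point for each of the 4 mice of a group (replicates 1 to 4 from left to right) and a line at the group mean. *Trat1* and *Gzmb* separate UREΔ from WT in LSKs and in GMPs, and the highest points of *Cd3d*, *Cd3e* and *Cd3g* are at 0.461, 0.032 and 0.589 CPM, with the other points of *Cd3e* at 0.

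The CD3 chains themselves were almost undetected. *Cd3g*, *Cd3d* and *Cd3e* lie side by side on chromosome 9, with 1354 bases between *Cd3g* and *Cd3d* and 11400 between *Cd3d* and *Cd3e*. *Cd3e* gave a single count in 1 WT LSK library and 0 in the other 15. *Cd3d* had 32 counts over the 16 libraries and *Cd3g* had 36, with at most 14 in any library. All 3 together made up 18 counts in WT LSKs, 19 in UREΔ LSKs, 11 in WT GMPs and 21 in UREΔ GMPs. None of the 3 genes passed the filter on low counts in any comparison, so they were not tested. A group total of 0 counts, such as *Cd3d* in UREΔ LSKs, allows a level of up to 0.0319 CPM at this depth, counting error only.

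Among the chains of the complex, the zeta chain gene *Cd247* was measurable. It was at 4.45, 6.84, 5.66 and 2.7 CPM in WT LSKs and 9.58, 8.87, 13.4 and 6.72 CPM in UREΔ LSKs, and at 0.26, 0.498, 0.244 and 0.57 CPM in WT GMPs and 2.79, 1.2, 2.41 and 2.03 CPM in UREΔ GMPs. The genotypes overlapped slightly in LSKs and not at all in GMPs. *Cd247* was called higher in UREΔ GMPs, with a log2 fold change of 2.41 (SE 0.439, edgeR adjusted p = 0.00936), from means of 0.393 ± 0.166 to 2.11 ± 0.681 CPM. Of the GMP libraries, 4 UREΔ and 1 WT reached the level of the filter on low counts, so the calls of *Cd247* in GMPs are a description only. Within replicates 1 and 4 the log2 fold change was 2.53 (adjusted p = 0.0395) and within replicates 2 and 3 it was 2.25 (adjusted p = 0.322, range over the alternatives 2.09e-05 to 0.322). In LSKs the log2 fold change was 0.94 (SE 0.352, adjusted p = 0.208) and within replicates 1 and 4 it was 1.15 (adjusted p = 0.159), with the UREΔ mouse above the same-numbered WT mouse in all 4 pairs. *Cd247* lies at chr1:165788681-165877277 and shares 56.4% of its exonic bases with *Pou2f1* on the opposite strand. Since the libraries keep no strand, reads from this overlap cannot be assigned to either gene by strand. *Pou2f1* itself had a log2 fold change of -0.24 (SE 0.308, adjusted p = 0.759) in GMPs. *Gm16565*, a transcript on the strand of *Cd247* that shares 206 exonic bases with it, was called higher in UREΔ cells of both populations, with log2 fold changes of 1.02 (adjusted p = 0.0314) in LSKs and 2.96 (adjusted p = 0.0247) in GMPs.

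The kinases and the adaptor LAT were expressed in WT LSKs already, at very different levels. Expressed as mean CPM per kb of the longest transcript, *Lat* stood at 39.9 and *Lck* at 36.5 in WT LSKs, while *Cd247* was at 1.66, *Zap70* at 0.617 and *Tcf7* at 0.607. In UREΔ GMPs this order was different, with *Trat1* at 32.0, *Gzmb* at 31.7, *Lat* at 23.6, *Lck* at 7.55, *Tcf7* at 1.74, *Cd247* at 0.713 and *Zap70* at 0.681 CPM per kb. The SDs of *Trat1*, *Gzmb* and *Lat* in that group (11.5, 28.2 and 13.1 CPM per kb) exceeded the gaps between them, so that their order there does not exceed the spread between mice.

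*Lck*, the kinase that starts the cascade, was measured at 76.7, 80.4, 110 and 51.4 CPM in WT LSKs and at 47.2, 51.9, 37.9 and 40.3 CPM in UREΔ LSKs. The UREΔ library was below the same-numbered WT library in all 4 pairs, and the ranges overlapped narrowly (51.4 CPM for the lowest WT library, 51.9 CPM for the highest UREΔ library). The log2 fold change of *Lck* in LSKs was -0.88 (SE 0.248, edgeR adjusted p = 0.076). With the replicate number as a block it was -0.83 and was called lower (adjusted p = 0.0438), and over all alternatives the adjusted p ranged from 0.036 to 0.51, the highest in the fit with Y-linked transcripts as covariate. Within replicates 1 and 4 the log2 fold change of *Lck* in LSKs was -0.58 (adjusted p = 0.23). In GMPs, WT gave 7.18, 9.38, 13.3 and 8.3 CPM and UREΔ gave 27.9, 8.72, 15.6 and 13.7 CPM, with a log2 fold change of 0.78 (SE 0.376, adjusted p = 0.289). It was 1.41 within replicates 1 and 4 (adjusted p = 0.0629) and 0.08 within replicates 2 and 3 (adjusted p = 0.97).

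*Zap70* was low in all groups. WT LSKs gave 1.99, 1.44, 1.75 and 0.362 CPM and UREΔ LSKs 3.74, 4.37, 7.4 and 4.34 CPM, without overlap. The log2 fold change in LSKs was 1.80 (SE 0.512, adjusted p = 0.0812), and it became 1.93 with the replicate block, where it was called higher (adjusted p = 0.0393, range over the alternatives 0.00403 to 0.251). In replicates 1 and 4 alone it was 1.73 and was not called (adjusted p = 0.251, the highest over the alternatives). The level of the filter on low counts was reached in 4 UREΔ and 3 WT LSK libraries, so the calls of *Zap70* in LSKs are a description only. In GMPs the means were 0.453 ± 0.27 CPM in WT and 1.53 ± 0.934 CPM in UREΔ, with overlap through UREΔ library 2 at 0.157 CPM (log2 fold change 1.73, SE 0.744, adjusted p = 0.228). Within replicates 1 and 4 the log2 fold change in GMPs was 3.13 (adjusted p = 0.0181) and within replicates 2 and 3 it was 0.49 (adjusted p = 0.917, the highest over the alternatives). Of the GMP libraries, 3 UREΔ and 2 WT reached the level of the filter, so the call within replicates 1 and 4 is a description only.

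*Lat*, the substrate of ZAP70, had the highest level per kb of the 10 genes in WT LSKs, UREΔ LSKs and WT GMPs. It was measured at 74.2, 88.8, 106 and 58.8 CPM in WT LSKs and at 151, 160, 145 and 127 CPM in UREΔ LSKs. All UREΔ LSK libraries lay above all WT LSK libraries. The log2 fold change was 0.79 (SE 0.206, edgeR adjusted p = 0.0555), just outside the threshold, and 0.83 with the replicate block, where *Lat* was called higher (adjusted p = 0.0106, range over the alternatives 0.0106 to 0.508). Within replicates 1 and 4 it was 1.03 and was also called (adjusted p = 0.0277). In GMPs *Lat* was at 19.6, 27.2, 18.8 and 17.7 CPM in WT and 54.8, 20, 82.8 and 36.5 CPM in UREΔ, so that only UREΔ library 2 fell into the WT range. The log2 fold change was 1.23 (SE 0.403, adjusted p = 0.107), and without UREΔ GMP library 2 it was 1.47 with an adjusted p of 0.0263, past the threshold (range over the alternatives 0.0242 to 0.542). It was not called when any other single library was left out, and without UREΔ GMP library 3 it was 0.79 (adjusted p = 0.215). Within replicates 1 and 4 *Lat* was called higher in GMPs as well (log2 fold change 1.27, adjusted p = 0.0314).

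*Tcf7* was called higher in UREΔ GMPs and was not called in LSKs. The level of the filter was reached in 4 UREΔ and 2 WT GMP libraries, so the calls of *Tcf7* in GMPs are a description only. WT LSKs gave 0.768, 3.25, 1.05 and 0.926 CPM and UREΔ LSKs 0.39, 0.232, 0.757 and 1.25 CPM, which overlapped (log2 fold change -1.21, SE 0.666, adjusted p = 0.477). The LSK value rested largely on WT library 2, since it was -0.51 without that library, and within replicates 1 and 4 it was -0.07 (adjusted p = 0.972). WT GMPs gave 0.346, 0.913, 1.22 and 0.415 CPM and UREΔ GMPs 6.7, 2.4, 4.66 and 3.43 CPM, without overlap. The log2 fold change of *Tcf7* in GMPs was 2.55 (SE 0.519, edgeR adjusted p = 0.0156), from 0.724 ± 0.417 to 4.30 ± 1.85 CPM. Leaving out WT GMP library 4 took it just past the threshold (log2 fold change 2.36, adjusted p = 0.0518). Within replicates 1 and 4 the log2 fold change in GMPs was 3.71 (adjusted p = 0.00688) and within replicates 2 and 3 it was 1.71 (adjusted p = 0.363, range over the alternatives 1.7e-05 to 0.363).

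**Figure D2:**
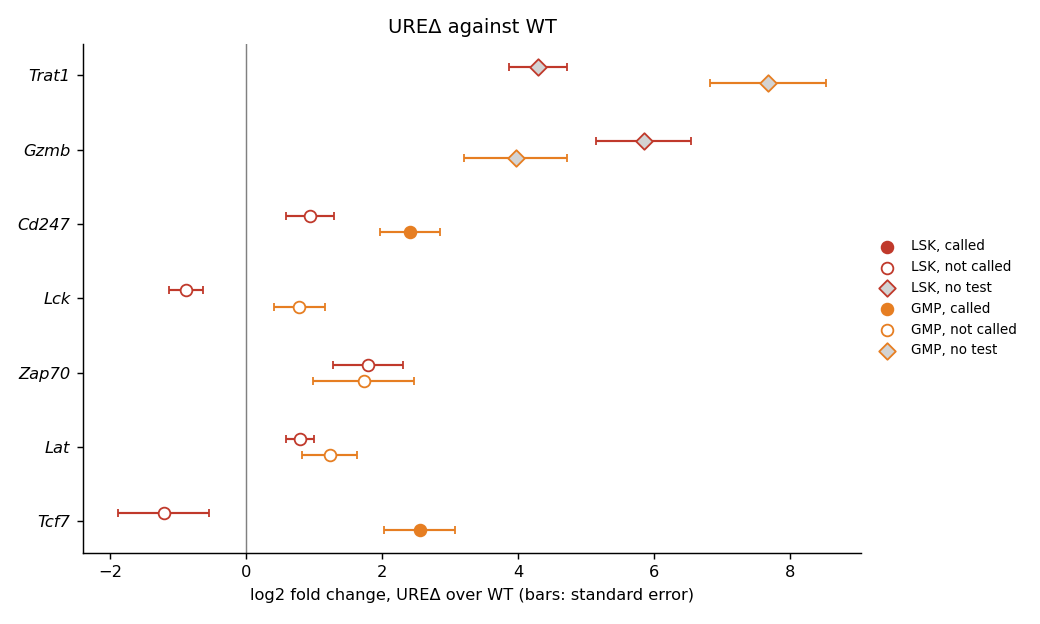
Log2 fold change of UREΔ over WT in LSKs and GMPs for the 7 genes that passed the filter on low counts, with bars for the standard error. Filled circles were called (*Cd247* and *Tcf7* in GMPs) and open circles were not. Both filled genes were tested through their UREΔ libraries, so their calls are a description only. Grey diamonds mark *Trat1* and *Gzmb*, which were not tested because their values chose them.

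Counted over the 8 genes listed for their role, 5 passed the filter on low counts. In LSKs 0 of these 5 were called by edgeR, against a background of 6.14% of all genes tested, although 4 of the 5 had an unadjusted p under 0.05 (15.3% of all genes) and DESeq2 and the edgeR fit with the replicate block called 3 each. Over all genes these fits called 679 higher and 958 lower of 28864 and 581 higher and 852 lower of 15154. The role genes behind these LSK counts did not share a direction. At the unadjusted p, *Lck* was lower in UREΔ and *Cd247*, *Zap70* and *Lat* were higher. With the block, *Lck* was called lower and *Zap70* and *Lat* higher. Both of these counts hold *Zap70*, whose calls in LSKs are a description only. In GMPs 2 of 5 were called, both higher, where 8.3% of all genes were called. The filter asks for a level equal to 10 counts in a library of median size in at least 4 libraries. In WT GMPs only 1 library for *Cd247* and 2 for *Tcf7* reached it, so both genes were tested through the UREΔ libraries in which they are high. Their calls, their count and the medians over the 5 are therefore a description only. Without the filter *Cd247* and *Tcf7* were also called (edgeR adjusted p = 0.0124 and 0.00923), from the same libraries and so not as separate support. The median log2 fold change of the 5 was 0.79 in LSKs and 1.73 in GMPs, where the medians over all genes tested lay at 0.000926 and 0.00521. Of the 5, 3 had a positive log2 fold change in LSKs and all 5 in GMPs.

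Whether the genotype difference itself was larger in GMPs than in LSKs was tested by an interaction term, which called 1.22% of all genes. *Tcf7* was the 1 gene of the 5 called, with a difference of 3.76 on the log2 scale (SE 0.87, edgeR adjusted p = 0.0471). This call rests close to the threshold, since it was lost in 15 of the 16 fits that each left out 1 library, with differences of 3.05 to 4.10 and adjusted p values of 0.053 to 0.113 (range over all alternatives 0.00123 to 0.79). The difference for *Lck* was 1.64 (SE 0.446, adjusted p = 0.0929) and was called with the replicate block (1.56, adjusted p = 0.0364, range over the alternatives 0.0276 to 1). For *Cd247*, *Lat* and *Zap70* the differences were 1.44 (95% interval 0.39 to 2.49), 0.39 (-0.49 to 1.28) and -0.10 (-2.05 to 1.85), all with adjusted p values of 0.256 or more. Without a test, the same difference was 3.34 (SE 0.845) for *Trat1* and -1.93 (SE 0.984) for *Gzmb*.

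GMPs were also compared with LSKs within each genotype. This sets sorted populations side by side and does not follow cells as they mature. In WT mice *Cd247*, *Lck* and *Lat* were called lower in GMPs, by 12.5-fold, 8.34-fold and 3.94-fold in mean CPM, with log2 fold changes of -3.64 (SE 0.441, edgeR adjusted p = 0.000475), -3.07 (SE 0.299, adjusted p = 0.000176) and -1.99 (SE 0.236, adjusted p = 0.000434). These 3 of 5 stand against a background of 27.3% called. In UREΔ mice the same 3 genes were again called lower in GMPs, with log2 fold changes of -2.23 (adjusted p = 0.00275), -1.46 (adjusted p = 0.0128) and -1.61 (adjusted p = 0.0145), while *Tcf7* was called higher, with a log2 fold change of 2.66 (SE 0.592, adjusted p = 0.0112). This gives 4 of 5 where 21.8% of all genes were called. *Cd247* in WT and *Tcf7* in UREΔ each reached the level of the filter in only 2 libraries of the group where they are lower. Both were tested through the group where they are high, so these calls and the counts of 3 of 5 and 4 of 5 are a description only. *Zap70* was lower in GMPs than in LSKs of the same number in all 4 pairs of both genotypes, with log2 fold changes of -1.61 (adjusted p = 0.0794) and -1.73 (adjusted p = 0.0815), and was called with the replicate block (adjusted p = 0.00919 and 0.031), without WT LSK library 4 in WT (0.0322) and without UREΔ GMP library 2 in UREΔ (0.0472). The ranges over the alternatives were 0.00919 to 0.212 in WT and 0.0256 to 0.208 in UREΔ. *Zap70* reached the level of the filter in 2 GMP and 3 LSK libraries in WT, and in 3 GMP and 4 LSK libraries in UREΔ. Its calls here are therefore a description only. *Trat1* was 5.59-fold higher in UREΔ GMPs than in UREΔ LSKs in mean CPM, without overlap, whereas its WT libraries overlapped (0.805 to 2.11 CPM in LSKs, 0.0977 to 1.5 CPM in GMPs). *Gzmb* showed the reverse layout, with WT GMPs above WT LSKs without overlap (1.76 to 5.56 against 0.101 to 1.37 CPM) and UREΔ GMPs on both sides of UREΔ LSKs (7.83 to 102 against 25.4 to 42.6 CPM). These comparisons share groups with the genotype comparisons and are not independent of them.

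**Figure D3:**
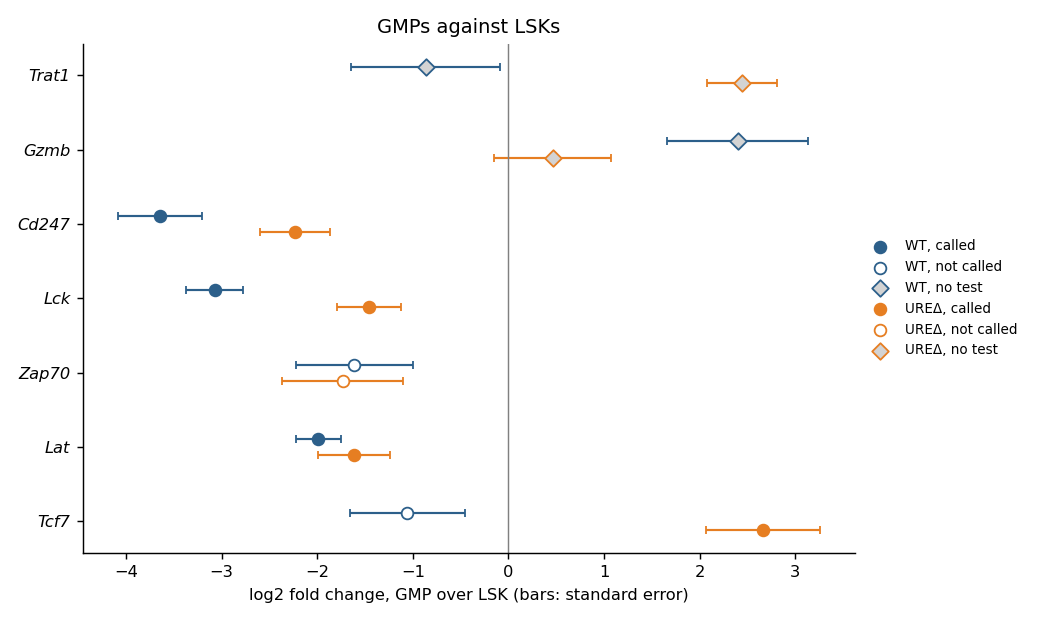
Log2 fold change of GMPs over LSKs in WT and in UREΔ mice, with bars for the standard error. *Cd247*, *Lck* and *Lat* lie on the left and are filled in both genotypes, and *Tcf7* lies on the right and is filled only for UREΔ.

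Of the 4 UREΔ GMP mice, 1 was lowest throughout. Library 2 was the lowest of the 4 for all 7 measurable genes. Relative to the mean of the group it stood at 0.102 for *Zap70*, 0.172 for *Gzmb*, 0.412 for *Lat*, 0.522 for *Trat1*, 0.528 for *Lck*, 0.559 for *Tcf7* and 0.57 for *Cd247*. The highest library was number 3 for *Trat1*, *Gzmb* and *Lat*, number 1 for *Cd247*, *Lck* and *Tcf7*, and number 4 for *Zap70*. The ratio of the highest to the lowest UREΔ GMP library was 14.0 for *Zap70* and 13.1 for *Gzmb*, against 2.33 to 4.14 for the other 5. In UREΔ LSKs library 2 was the lowest for 1 of the 7 genes. In the GMP libraries, number 2 also had the highest summed level of 8 GMP marker genes (161000 CPM against 73900 to 109000 in the others) and the lowest summed level of 8 mast cell and basophil markers (863 CPM against 1480 to 2380). The part of these markers in the order of the mice was not tested.

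**Figure D4:**
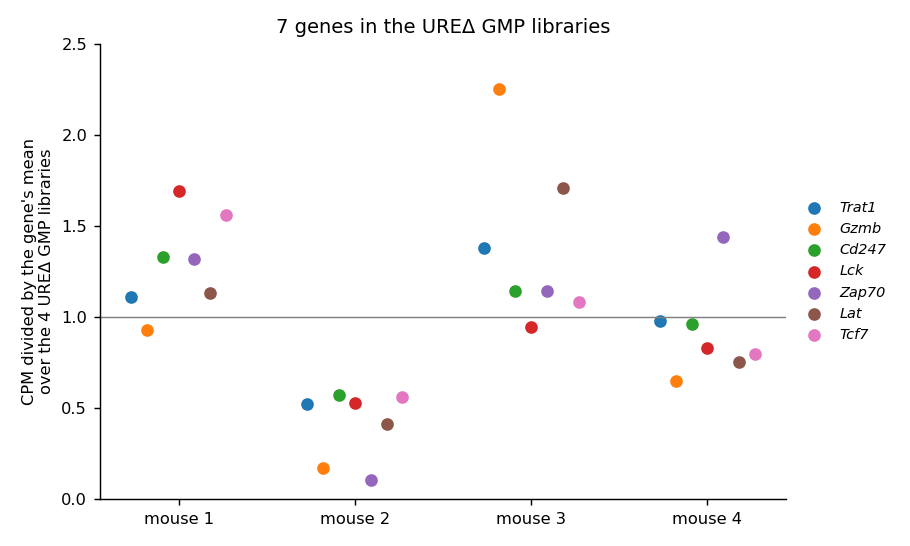
CPM of 7 genes in each UREΔ GMP library divided by the gene's mean over the 4 libraries, by mouse. All 7 points of mouse 2 lie below the line at 1 and below the points of the same gene in the other mice.

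No tested marker of mature T cells was called higher in UREΔ cells. A list of 12 such markers, which holds none of the 10 genes, summed to 25.8 to 40.0 CPM in WT LSKs and 7.01 to 11.1 CPM in UREΔ LSKs, and 5 of the 9 tested were called lower (*Cd4*, *Cd5*, *Cd6*, *Thy1* and *Ccr7*, background 3.76% lower) and 0 higher. Of these, *Cd4*, *Cd5* and *Thy1* reached the level of the filter in fewer than 4 UREΔ libraries and were tested through the WT libraries. In GMPs the sums overlapped, at 6.98 to 14.2 CPM in WT and 9.17 to 13.1 CPM in UREΔ, and 1 of 5 was called, lower. This was *Ccr7*, from a mean of 1.36 to 0.212 CPM, tested through its WT libraries. *Cd4*, *Cd5* and *Thy1* were also lower in mean there, from 1.72 to 0.82, 0.612 to 0.0512 and 1.7 to 0.684 CPM, without a call. *Cd6* and *Cd28* were higher in mean without a call (3.23 to 5.12 and 1.62 to 2.01 CPM). *Trac*, the constant region of the TCR alpha chain, had 0 counts in WT GMPs and 0.113 to 0.157 CPM in UREΔ GMPs (11 counts in all). The beta chain gene *Trbc2* went from a mean of 0.154 to 0.795 CPM and *Bcl11b* from 0.0104 to 0.654 CPM in GMPs. These 3 genes were below the filter in GMPs and were not tested there, and *Cd8a* was at 0 counts in UREΔ LSKs and UREΔ GMPs. For natural killer cells, 11 markers summed to 219 to 361 CPM in UREΔ LSKs against 127 to 304 CPM in WT LSKs, and to 1360 to 2240 CPM in UREΔ GMPs against 573 to 996 CPM in WT GMPs. Most of this sum was *Nkg7*, which is also among the granule genes below (mean 1710 CPM in UREΔ GMPs). The list members *Ncr1*, *Eomes* and *Tbx21* stayed at or below a mean of 0.168 CPM in every group. *Klrb1c* averaged 2.6 CPM in WT LSKs, 1.67 in UREΔ LSKs, 0.957 in WT GMPs and 1.22 in UREΔ GMPs. In LSKs 1 of 6 tested NK markers was called higher (*Prf1*, background 2.38%), in GMPs 2 of 5 were called higher (*Prf1* and *Nkg7*, background 4.67%), and 0 were called lower in either. Without being called, *Klrk1* went from a mean of 1.09 to 0.181 CPM in LSKs and from 10.7 to 3.67 CPM in GMPs. *Ccl5* went from 5.73 to 2.23 CPM in LSKs and from 1.79 to 0.734 CPM in GMPs, also without a call. A list of 10 markers of type 2 innate lymphoid cells was higher in UREΔ without overlap, at 131 to 162 against 78.9 to 105 CPM in LSKs and 87.0 to 134 against 31.8 to 40.5 CPM in GMPs, with *Areg* at 0 counts in every group. Of the 6 tested, 2 were called higher in LSKs (background 2.38%), and 3 were called higher and 1 lower in GMPs (background 4.67% and 3.63%). The list members *Il5*, *Il13* and *Il2ra* stayed at or below a mean of 0.243 CPM in every group. *Il1rl1* was not called, with means of 1.25 and 3.56 CPM in WT and UREΔ LSKs and 13.8 and 13.3 CPM in WT and UREΔ GMPs. In UREΔ cells most of the sum was *Gata3* in LSKs and *Il17rb*, a receptor for interleukin 25, with *Gata3* in GMPs (means of 59.6 and 35.5 CPM), while *Il7r* fell in GMPs and had a log2 fold change of -3.93 in LSKs without being called there. This list holds *Gata3* and *Icos*, which are also described below. Mast cell and basophil markers summed to 133 to 266 CPM in UREΔ LSKs against 72.6 to 155 CPM in WT LSKs and to 863 to 2380 against 713 to 1270 CPM in GMPs, with overlap in both. Megakaryocyte and platelet markers summed to 58.9 to 746 CPM in UREΔ LSKs against 66.6 to 87.3 CPM in WT LSKs, the highest in library 3, and 1 of 5 tested was called higher there (*Itga2b*, from 36.5 ± 9.29 to 137 ± 74.8 CPM, adjusted p = 0.026), while the GMP sums overlapped (77.4 to 246 against 102 to 220 CPM) and 0 of 5 were called. Among the mast cell markers, the protease genes *Mcpt8* and *Cpa3* were called higher in UREΔ LSKs (log2 fold changes 2.11 and 1.90, adjusted p = 0.0262 and 0.0212), 2 of 7 tested with a list median of 1.89 and 0 called lower. In GMPs *Mcpt8* was called higher and *Prss34* and *Ms4a2* lower (log2 fold changes 1.48, -2.43 and -2.92) of 6 tested. Early lymphoid, B-cell and plasmacytoid dendritic cell markers summed lower in UREΔ GMPs without overlap. The early lymphoid sum was 85.3 to 184 against 426 to 613 CPM and the B-cell sum 8.24 to 23.7 against 61.4 to 89.1 CPM. That of plasmacytoid dendritic cells was 121 to 234 against 301 to 535 CPM. In GMPs 4 of 5, 1 of 1 and 1 of 3 tested were called lower (background 3.63%) and 0 higher. In LSKs 4 of 7, 1 of 3 and 2 of 4 were called lower (background 3.76%). The early lymphoid sums overlapped there (463 to 1640 against 1560 to 2250 CPM). So did those of plasmacytoid dendritic cells (168 to 300 against 239 to 331 CPM), while the B-cell sums did not (24.9 to 36.4 against 58.2 to 83.3 CPM). *Ccr9*, on the early lymphoid and plasmacytoid dendritic cell lists, was higher in mean in UREΔ cells. It went from 7.33 to 31.1 CPM in LSKs without a call. In GMPs it went from 0.123 to 2.58 CPM and was below the filter. The part of these lists in the results was not tested.

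Other genes of the receptor pathway moved in both directions. Some genes of the marker and pathway lists were called although the group in which they are lower would not have passed the filter by itself, and counts that hold such genes are a description only. Over all genes, 26.1% of those called higher and 31.6% of those called lower in LSKs were of this kind, and 30.5% and 33.9% in GMPs. Of 43 genes of proximal TCR signalling, 39 were tested in LSKs, where 2 were called higher and 5 lower, and 37 in GMPs, where 5 were called higher and 4 lower. Over all genes tested, 2.38% were called higher and 3.76% lower in LSKs and 4.67% and 3.63% in GMPs. The median log2 fold changes were -0.08 and 0.17. In LSKs, the adaptor *Skap1* was called higher (0.778 ± 0.354 to 21.9 ± 12.4 CPM, log2 fold change 4.77, adjusted p = 0.000983). In GMPs, *Lcp2*, which encodes the LAT partner SLP-76, was called higher (log2 fold change 0.94, adjusted p = 0.00613), as was the adaptor gene *Lax1* (2.41, adjusted p = 0.002). *Themis2*, *Sla*, *Ptpn6* (the phosphatase SHP-1) and *Skap2* were called lower in both populations, with *Themis2* at log2 fold changes of -4.34 in LSKs and -2.34 in GMPs. *Skap1* and *Skap2* thus had opposite signs in UREΔ LSKs.

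The genes that build the receptor chains were low or lower. Of 11 TCR chain and recombination genes listed, 8 were in the table. In LSKs 5 were tested and 3 called, all lower (background 3.76%). These were the recombinase genes *Rag1* (2.38 ± 2.31 to 0.039 ± 0.0779 CPM) and *Rag2* (15.6 ± 7.6 to 1.01 ± 0.379 CPM) and *Dntt*, which adds bases at the joins (442 ± 134 to 114 ± 68.1 CPM). *Rag1*, with 4 counts in UREΔ LSKs, was tested through its WT libraries. *Dntt* was also called lower in GMPs (log2 fold change -1.57, adjusted p = 0.023), the 1 call of 2 tested there.

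Among 19 coreceptor and costimulation genes, 3 were called higher and 4 lower of 14 tested in LSKs, and 3 higher and 3 lower of 11 tested in GMPs, where the background was 6.14% called in either direction in LSKs and 8.3% in GMPs. *Ctla4*, an inhibitory receptor, was called higher in UREΔ LSKs (0.672 ± 0.757 to 14.1 ± 6.65 CPM, log2 fold change 4.35, adjusted p = 0.0101), with *Cd7* (2.30, adjusted p = 0.00316) and *Icos* (1.56, adjusted p = 0.0426). *Pdcd1*, which encodes the inhibitory receptor PD-1, was called higher in UREΔ GMPs (0.469 ± 0.368 to 6.81 ± 3.35 CPM, log2 fold change 3.82, adjusted p = 0.00784). *Il7r*, the receptor of a lymphoid growth factor, was called lower there, from 91 counts in WT to 3 in UREΔ GMPs (adjusted p = 0.0131), as was *Btla*, an inhibitory receptor (6.77 ± 0.873 to 0.902 ± 1.17 CPM, adjusted p = 0.0388). In LSKs *Btla* went the other way without being called (16.8 ± 5.76 to 40.4 ± 15.7 CPM, log2 fold change 1.23, adjusted p = 0.0927). The interaction for *Btla* was called (-4.15, adjusted p = 0.0218). The costimulatory receptor gene *Cd27* was called lower in both populations, from 268 ± 35 to 136 ± 24.6 CPM in LSKs and from 134 ± 20.7 to 31.9 ± 14.1 CPM in GMPs (adjusted p = 0.00921 and 0.0038). The other 3 called lower in LSKs were *Cd4*, *Cd5* and *Cd6*, given above with the mature T-cell markers. The calls of *Ctla4*, *Cd4* and *Cd5* in LSKs and of *Pdcd1*, *Btla* and *Il7r* in GMPs are of the kind tested through 1 group.

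Of 23 transcription factors of the T lineage, 3 were called higher and 1 lower of 18 tested in LSKs, and 3 higher and 0 lower of 13 tested in GMPs (background 2.38% and 4.67% called higher). The 1 called lower in LSKs and 1 of the 3 called higher in GMPs are not described further here. *Gata3*, a factor that acts with TCF1 in early T-cell and innate lymphoid development, was called higher in both, from 48.6 ± 5.54 to 110 ± 9.08 CPM in LSKs (log2 fold change 1.15, adjusted p = 0.00225) and from 5.69 ± 3.17 to 35.5 ± 11.8 CPM in GMPs (2.65, adjusted p = 0.00547). *Tox* was called higher in both (log2 fold changes 1.14 and 3.10). *Lef1*, a relative of *Tcf7*, was called higher in LSKs from a very low level (0.129 ± 0.0997 to 2.07 ± 2.13 CPM) and was below the filter in GMPs. *Lef1* was tested through its UREΔ libraries, and *Bcl11b*, the factor that fixes T-cell commitment, averaged at most 0.882 CPM in any group.

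Granule genes were mostly higher or not called in UREΔ GMPs. Of 23 cytotoxic granule genes other than *Gzmb*, 13 were tested there, 7 were called higher (background 4.67%) and 0 lower, with a median log2 fold change of 1.07. Of the 7, *Prf1* and *Ctsw* were tested through their UREΔ libraries. *Nkg7* and *Cst7* were also among the 7 and were already abundant in WT GMPs. Their means went from 804 to 1710 CPM and from 168 to 380 CPM. In WT mice both were called higher in GMPs than in LSKs (log2 fold changes 2.18 and 3.30). *Serpinb9*, *Serpinb6b* and *Ctsw* were called lower in that comparison, *Ctsw* tested through its LSK libraries. In LSKs 3 of 14 were called higher (background 2.38%) and 1 lower, and of the 3 called higher *Gzmc* was tested through its UREΔ libraries. The 14 had a median log2 fold change of 0.41, which does not change with *Gzmc* at its bound given below. Perforin (*Prf1*), which forms the pores through which granzymes enter, was called higher in both, from 0.608 ± 0.195 to 2.56 ± 0.807 CPM in LSKs and from 0.361 ± 0.2 to 2.11 ± 0.646 CPM in GMPs. The granule protease gene *Ctsw* was called higher in both (log2 fold changes 1.52 and 2.98), and *Serpinb9*, an inhibitor of granzyme B, in GMPs (1.64, adjusted p = 0.0123). *Rab27a*, needed for granule release, was called lower in LSKs (-1.29, adjusted p = 0.00621) and higher in GMPs (1.21, adjusted p = 0.0498), and this difference was itself called (interaction 2.49, adjusted p = 0.00868). *Gzmc*, the nearest neighbour of *Gzmb* on chromosome 14, had 0 counts in all 8 WT libraries and totalled 186 counts in UREΔ LSKs and 69 in UREΔ GMPs, at least 57.3-fold and 28.5-fold higher against a floor of 3 counts over the WT group. *Gzmc* and *Gzmb* transcripts share 19 stretches of 31 bases (1.35% of those of *Gzmb*), so that part of these counts is uncertain. The next genes on that side, *Gzmf* and *Gzmn*, and *Atp12a* on the other side had 0 counts in all 16 libraries. The granzyme genes *Gzma* and *Gzmk* were below the filter in both populations.

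**Figure D5:**
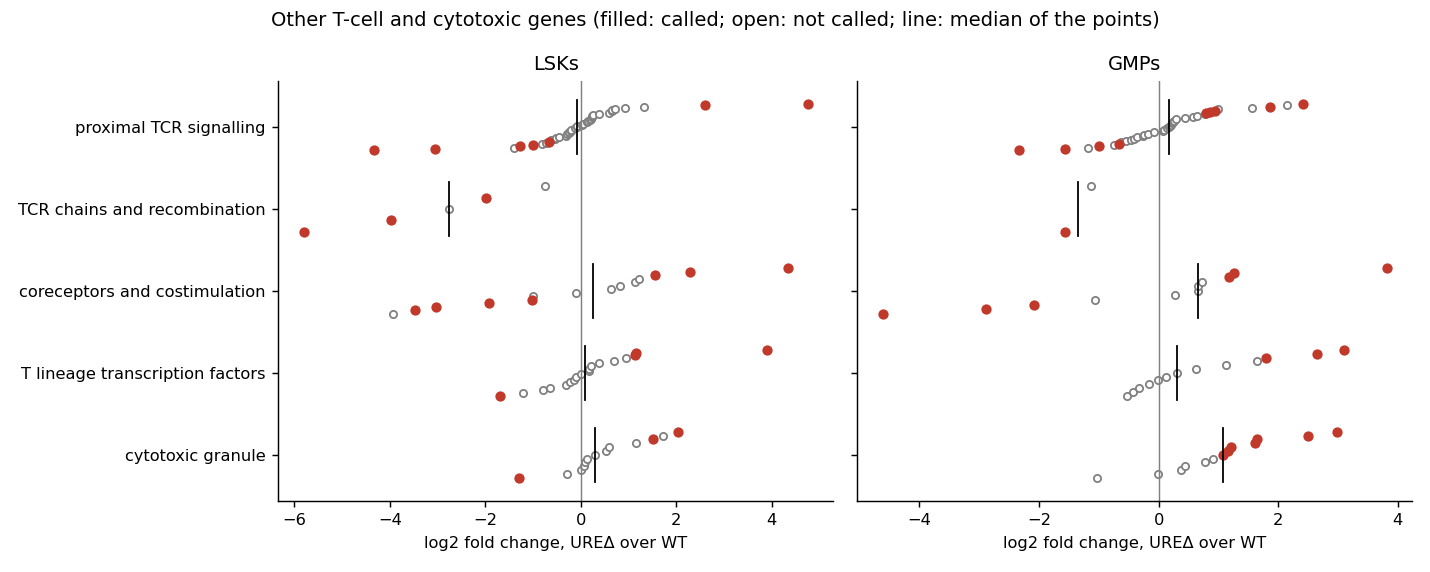
Log2 fold change of UREΔ over WT for the tested genes of 5 lists in LSKs (left) and GMPs (right), with 1 point per gene, filled where called, and a line at the median of the points drawn. *Gzmc* in LSKs is left out because its WT libraries held 0 counts. In GMPs 7 points of the cytotoxic granule list are filled, all on the right of 0.

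The genes whose pattern over the 16 libraries was most like that of *Trat1* were *Slc27a3*, *Sytl2* and *Htr1b*, at root mean square distances of 1.27, 1.35 and 1.45 between centred log2 CPM, among 15935 genes compared. *Slc27a3* averaged 0.299 and 9.43 CPM in WT and UREΔ LSKs and 0.292 and 29.7 CPM in WT and UREΔ GMPs. For *Gzmb* they were *Scin* (1.18), *Rbm45* (1.21) and *Dnah12* (1.25). None of these 6 belongs to the 10 genes or the 5 lists. *Trat1* and *Gzmb* were closer to each other (2.14) than either was to any of the other 8 genes, for which the distances ran from 2.96 to 3.60 for *Trat1* and from 2.48 to 3.31 for *Gzmb*. All these values describe 16 libraries in 4 groups, in which genes with a difference between the genotypes resemble each other by that difference alone.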

How the data were processed

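Per the study's methods and the labels, each mouse gave at most 10 ng of RNA for an unstranded paired-end library. The authors quantified reads with salmon, summed transcripts to genes with tximport and deposited estimated counts per gene, rounded to whole numbers and not normalized, on GRCm38. The annotation release for these libraries is not given in the sources used here. There are no molecular identifiers, so amplified copies count as molecules and limits from depth cover counting error only.

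The members and gene lists were chosen with earlier results of these data known. Each comparison was fitted on its own groups with edgeR 4.0.16 (limma 3.58.1, R 4.3.3): TMM scaling, filterByExpr and the quasi-likelihood test, with Benjamini-Hochberg adjustment over all genes tested. Calls needed an adjusted p below 0.05 together with a fold above 1.5, and the interaction, over all 16 libraries, at the adjusted p alone. CPM used TMM sizes over 16 libraries, and SEs came from the log2 fold change and the F statistic. The procedure was tested on simulated data. The genes named are the 10 members, called genes of 5 lists by role, markers, sequence or position neighbours, and the 3 genes most like *Trat1* and *Gzmb*. Some of these list genes were picked for mention after their values were seen, and the values of 2 list genes are not reported here.

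Of 54347 identifiers, 54094 were in GENCODE M21, whose coordinates on GRCm38 are given; 253 kept the deposited name. Motif shares use 250 bases before each RefSeq start (GRCm38.p6). The labels number the mice of each group 1 to 4. Deviations of same-numbered libraries from their group means correlated in every pair (r 0.237 to 0.711), so the numbers were taken to pair the samples, and each fit was repeated with the replicate block. Libraries numbered 1 and 4 also correlated with each other (0.195 to 0.398), as did 2 and 3 (0.0586 to 0.284), and values across these sets were negative (-0.592 to -0.15), so the block also separates these 2 sets. The labels do not say whether LSK and GMP libraries of 1 number come from the same mouse. Other alternatives were DESeq2 1.42.0, RLE or total-count scaling, other filters, a joint fit, replicates 1 and 4 or 2 and 3 alone, the Y-linked level as covariate, no fold threshold and leaving out each library. Plots used matplotlib 3.10.9.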

Additional observations from a re-analysis of the deposited data

Results flagged for a closer look

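In 35 groups of 4 libraries, each a gene's CPM in a group, 6 held a library far from the other 3, where chance alone would give about 1 in 20. That rate does not hold for the 3 of these groups in which 3 libraries were at 0 (*Cd3d* in WT GMPs, *Cd3e* in WT LSKs and *Cd3g* in UREΔ GMPs), since any count then stands apart. *Cd3d* was at 0.457 CPM (11 counts) in WT GMP library 2 and at 0 in the other 3. *Cd3e* was at 0.032 CPM (1 count) in WT LSK library 1 and at 0 in the others. *Cd3g* was at 0.589 CPM (14 counts) in UREΔ LSK library 3, against 0 to 0.0993 CPM, and at 0.358 CPM (7 counts) in UREΔ GMP library 3, against 0. *Tcf7* was at 3.25 CPM (97 counts) in WT LSK library 2, against 0.768 to 1.05 CPM. *Gzmb* was at 5.56 CPM (134 counts) in WT GMP library 2, against 1.76 to 2.29 CPM. The effect of genotype on *Tcf7* differed between GMPs and LSKs by 3.757 on the log2 scale in the interaction test.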

How the results depend on the processing

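Of 675 fold changes recomputed for single genes, 608 kept their direction and their side of the threshold (for *Trat1* and *Gzmb*, stayed within the spread between replicates), 28 fell below the threshold, 25 passed it, 9 changed sign and 5 moved. The number of the 8 role genes called in LSKs was 0 and became 3 with DESeq2, 3 with the replicate block, 1 with RLE scaling and 1 within replicates 1 and 4. With the block, *Lck* was called lower and *Zap70* and *Lat* higher. The number was 0 or 1 when a library was left out: *Lck* was called without WT LSK library 4 and *Lat* without WT LSK library 3. In GMPs 2 became 1 with the CPM filter, 4 within replicates 1 and 4 and 0 within replicates 2 and 3, and 1 to 3 without a library. The interaction count of 1 became 2 with DESeq2 and with the replicate block, and 0 with RLE scaling, total counts, all genes, either pair of replicates, the Y-linked covariate, or without a library (0 to 1). GMP against LSK in UREΔ fell from 4 to 1 within replicates 2 and 3, where 2 mice per group remained. For the 10 genes, the replicate block changed no call other than those given beside the results. It was not given for the list genes. The cause of these changes was not tested.

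The sign changed for the interaction of *Zap70* (1.39 within replicates 1 and 4, -0.39 to 0.27 without a library) and of *Lat* (-0.0046 to 0.65 without a library), for *Trat1* in WT GMPs against LSKs (0.64 within replicates 1 and 4), and for *Gzmb* in UREΔ GMPs against LSKs (-0.32 to 0.82 without a library, below 0 without UREΔ GMP library 3). Scaling by total counts moved the median over all genes by -0.33 and -0.31 in the GMP against LSK comparisons, and the split of calls from 1702 higher and 2335 lower to 773 and 3703 in WT, and from 1325 and 1808 to 789 and 2788 in UREΔ. *Zap70* in WT GMPs against LSKs could not be fitted within replicates 1 and 4, where it was below the filter. The *Cd3* genes had too few counts to be tested at this depth.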
